A study of Drosophila melanogaster with 3 samples.

Results

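The genes for the proteins of the cytosolic ribosome were examined for chromatin association of Pif1A in Drosophila melanogaster pupae. They were taken as every annotated gene whose symbol is RpL, RpS or RpLP followed by a number, with or without further letters, together with sta, the gene for the small subunit protein also called RpSA. This gave 86 of 13968 protein-coding genes, 48 for the large subunit and 38 for the small subunit. Pif1A was profiled by chromatin immunoprecipitation and sequencing (ChIP-seq) in a transgenic fly line that carries Pif1A with GFP at its C terminus (Pif1A-eGFP), and an antibody against GFP recovered the protein from sonicated chromatin. All samples belong to 1 group of 3 biological replicates of whole pupae of this line, males and females pooled, with the age given as unknown and no drug or other allele named. The replicates share a control. No sample of untagged flies was analysed here, so GFP-antibody signal unrelated to Pif1A cannot be told apart from its binding, and in whole animals the tissue that gave a signal is not known.

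The deposited lists give, on the dm6 genome (Release 6), the ranked peaks of each replicate and of the pooled replicates, 30000 entries each and reaching down to background by construction, and an optimal list of 7283 peaks. The optimal peaks were the same as the 7283 highest of the pooled list. The lists hold no read counts, so the depth is unknown and no interval for counting error can be given. A gene was called bound in the optimal list when a peak summit lay within 500 bp of the start of one of its transcripts (TSS). It was called bound in a replicate when this held for 1 of the 7283 highest peaks of that replicate, and listed when any entry of a list met it. Ranks follow the authors' signal score within each list, and rank 1 is the highest.

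Ribosomal protein genes are among the most highly transcribed genes of growing cells, and their products are needed in equal amounts, so that loss of 1 copy of many of them slows fly development (the Minute phenotype). In flies most of their promoters start transcription at a pyrimidine-rich initiator, the TCT motif, in place of the usual initiator. Other short sequences known at these promoters are the DNA replication-related element (DRE), bound by the factor Dref, and Motif 1, bound by M1BP, both of which bring in the TBP-related factor Trf2.

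The promoters below are shown as examples of those used for the results on position and motifs. Each is the sense strand on dm6 (RefSeq genome, Release 6), from 70 bases before the annotated start of the gene to the first 30 bases after it, so that the gene starts at base 71 of 100. Capitals mark the DRE core ATCGAT, the Motif 1 core GGTCACAC on either strand, or CTTT with its C within 5 bases of the gene start, taken here as the TCT start. The first 4 are high-ranked bound promoters of either subunit: RpL24 (chr2L:13395102-13395201, minus strand), RpL7 (chr2L:10200934-10201033, plus strand), RpS27 (chr3R:25247485-25247584, minus strand) and RpS10b (chrX:19597961-19598060, plus strand).
RpL24: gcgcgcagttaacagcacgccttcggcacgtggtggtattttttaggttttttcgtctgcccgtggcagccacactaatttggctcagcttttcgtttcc
RpL7: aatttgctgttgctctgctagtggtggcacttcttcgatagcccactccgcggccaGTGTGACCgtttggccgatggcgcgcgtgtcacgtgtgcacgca
RpS27: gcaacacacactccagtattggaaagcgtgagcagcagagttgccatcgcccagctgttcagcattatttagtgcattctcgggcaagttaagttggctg
RpS10b: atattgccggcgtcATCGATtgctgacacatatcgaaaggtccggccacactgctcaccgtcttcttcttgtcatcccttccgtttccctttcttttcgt

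The next 2 have the Motif 1 core within 50 bp of the optimal summit: RpLP1 (chr2L:419882-419981, plus strand) and RpS9 (chr3L:9511502-9511601, minus strand).
RpLP1: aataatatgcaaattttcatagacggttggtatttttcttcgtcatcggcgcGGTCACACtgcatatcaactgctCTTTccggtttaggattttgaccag
RpS9: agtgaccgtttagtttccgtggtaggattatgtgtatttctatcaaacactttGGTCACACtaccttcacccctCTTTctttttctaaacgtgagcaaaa

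Of paralogue pairs in which 1 copy was bound, RpS19a (chrX:16637824-16637923, plus strand) is set beside its unbound copy RpS19b (chr3R:23933501-23933600, minus strand), and RpS10a (chr3R:27652690-27652789, plus strand) is the unbound copy of RpS10b above.
RpS19a: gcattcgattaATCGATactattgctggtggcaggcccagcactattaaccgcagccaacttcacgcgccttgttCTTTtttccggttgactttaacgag
RpS19b: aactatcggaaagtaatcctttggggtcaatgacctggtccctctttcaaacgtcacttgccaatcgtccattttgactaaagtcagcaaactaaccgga
RpS10a: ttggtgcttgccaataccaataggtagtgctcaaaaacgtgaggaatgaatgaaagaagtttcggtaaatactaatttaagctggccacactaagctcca

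The last 3 belong to genes with no entry in any list: RpL3 (chr3R:11221824-11221923, plus strand), RpL35A (chr3R:5467072-5467171, minus strand) and RpL6 (chr3R:31596175-31596274, minus strand), the last of which holds the Motif 1 core.
RpL3: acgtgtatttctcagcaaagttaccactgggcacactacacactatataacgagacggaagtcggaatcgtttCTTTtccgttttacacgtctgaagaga
RpL35A: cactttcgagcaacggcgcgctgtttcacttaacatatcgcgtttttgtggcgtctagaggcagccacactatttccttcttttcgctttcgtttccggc
RpL6: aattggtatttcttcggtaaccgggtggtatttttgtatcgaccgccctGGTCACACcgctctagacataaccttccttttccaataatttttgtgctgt

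Pif1A-GFP peaks lay at the promoters of 39 of the 86 ribosomal protein genes in the optimal list (45.3%), against 14.1% of all protein-coding genes. In the replicates 45, 47 and 48 of the 86 were bound in replicates 1, 2 and 3, where 17.2%, 15.8% and 15.4% of all protein-coding genes were. The mean was 54.3% ± 1.78 (SD, n = 3 replicates) of ribosomal protein genes and 16.2% ± 0.961 of all protein-coding genes, so the gap was many times the spread between replicates. In all 3 replicates 31 ribosomal protein genes were bound (36.0%), against 10.4% of all protein-coding genes, and all 31 were also bound in the optimal list. So were 1372 of the 1459 protein-coding genes bound in all 3 replicates, and the optimal list draws on the same replicates. The other 8 ribosomal protein genes of the optimal list were each bound in exactly 2 replicates, among them RpL5, RpL37A, RpS9, RpS12, RpS14a, RpS15 and sta. When only optimal peaks found in both other replicates by 50% overlap were kept, 25, 26 and 23 genes were left without replicate 1, 2 and 3, against 8.50%, 9.29% and 8.78% of all protein-coding genes. The list was chosen with its bound share already known, so these counts describe it and carry no test.

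The optimal list held nearly the same share of both subunits, 22 of 48 large subunit genes (45.8%) and 17 of 38 small subunit genes (44.7%). Among the 7283 highest peaks of each replicate the large subunit share was the higher. Its bound share was 56.2%, 60.4% and 58.3% in the 3 replicates (mean 58.3% ± 2.08, SD, n = 3), and that of the small subunit was 47.4%, 47.4% and 52.6% (mean 49.1% ± 3.04). The 2 ranges did not overlap, and 20 large (41.7%) against 11 small subunit genes (28.9%) were bound in every replicate. The small subunit set holds the paralogue copies RpS5b, RpS10a, RpS15Ab, RpS19b and RpS28a, which were bound in no replicate. In the large subunit set only RpL10Aa is such a copy. Shares without these copies were not computed, so the difference between the subunits may depend on them. Over the whole replicate lists the ranges did overlap: 60.4%, 64.6% and 64.6% of large and 63.2%, 57.9% and 63.2% of small subunit genes were listed, with the small subunit share the higher in replicate 1. In the better-ranked part of the optimal list, its 3641 highest peaks, 19 large (39.6%) and 10 small subunit genes (26.3%) were bound, 29 in all, so the nearly equal shares did not hold there.

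At the level of peak rank the bound ribosomal protein genes were neither the top nor the bottom of the list. Their median optimal rank was 2351 (quartiles 1720 and 3758, n = 39), and that of the other bound protein-coding genes was 2832 (quartiles 1030 and 5019, n = 1926). The best of them stood at rank 614 and the last at 6893, whereas other genes began at rank 1. Large subunit genes had a median rank of 2060 and small subunit genes of 3053.

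**Figure D1:**
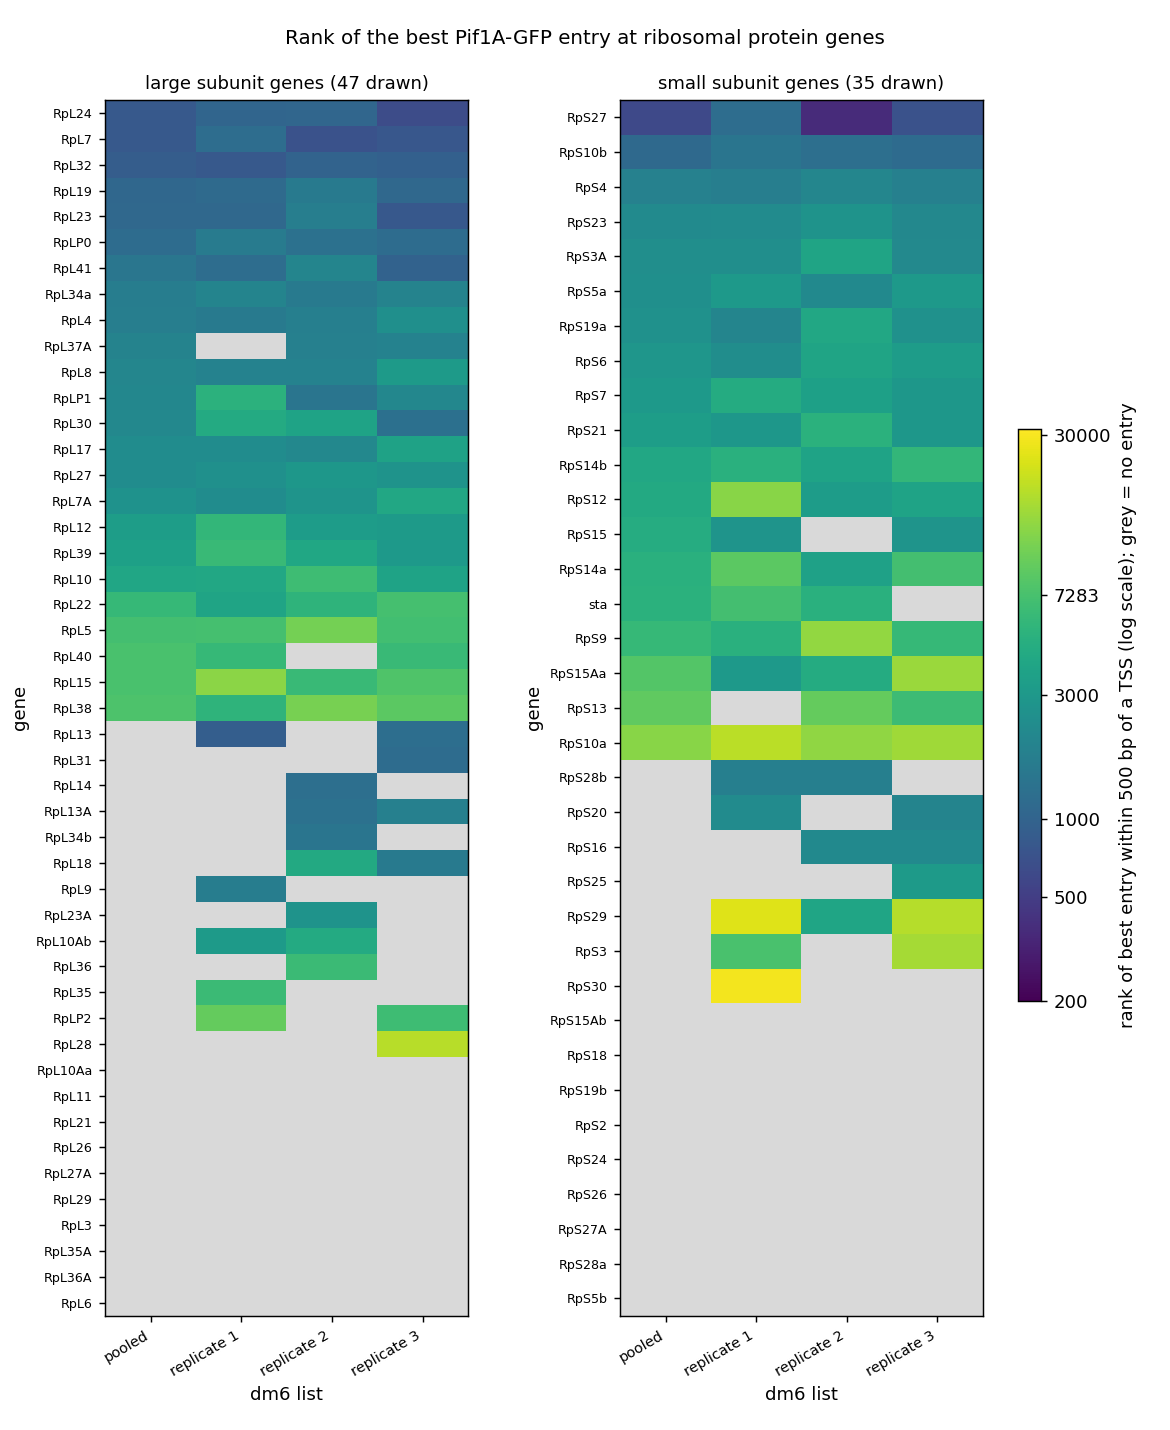
Rank of the best entry within 500 bp of a TSS for 47 large and 35 small subunit genes (rows) in the pooled list and the 3 replicate lists (columns), on a log colour scale with dark colours for high peaks and grey for no entry. A pooled rank up to 7283 means bound in the optimal list; 37 of the genes drawn reach it, and 19 are grey in every list.

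The 4 large subunit genes with the highest peaks were RpL24, RpL7, RpL32 and RpL19. RpL24, whose product reaches across the subunit interface, was at optimal rank 818 (score 408), with its summit 7 bp inside the gene. It was at ranks 1035, 1059 and 645 in replicates 1, 2 and 3, with scores of 109, 127 and 163. RpL7 followed at optimal rank 819 (score 408) with its summit 41 bp inside the gene, and at ranks 1231, 711 and 792 in the replicates (scores 99.5, 156 and 147). These 2 promoters were thus high in every replicate, and their order changed between replicates.

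RpL32, widely used as a reference gene in fly expression studies, was at optimal rank 885 (score 388) and at ranks 818, 993 and 935 in replicates 1, 2 and 3 (scores 123, 132 and 135). Its summit lay 139 bp upstream of the gene, and 146, 142 and 130 bp upstream in the replicates, farther out than at most ribosomal protein genes. The divergent gene CG7943 starts 170 bp from the same summit. RpL19, whose product bridges the subunits, was at optimal rank 1088 (score 344) and at ranks 1149, 1608 and 1097 in the replicates (scores 104, 96.6 and 126), with its summit 30 bp upstream of the gene.

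The other bound large subunit genes included, by optimal rank, RpL23, RpLP0, RpL41, RpL34a, RpL4, RpL37A, RpL8, RpLP1, RpL30, RpL17, RpL27, RpL7A, RpL12, RpL39, RpL10, RpL22 and RpL5. Among them are genes for proteins that line the exit tunnel of the nascent chain (RpL4, RpL17 and RpL39), for a protein close to the peptidyl transferase centre (RpL8) and for a 5S rRNA partner (RpL5). RpL5 was the weakest, at optimal rank 6893 (score 91.9) and at ranks 7109, 11070 and 6775 in replicates 1, 2 and 3. RpL11, the other 5S rRNA partner, was in none of the lists.

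The stalk of the large subunit recruits the elongation factors and is made of RpLP0, RpLP1 and RpLP2. RpLP0, its base, was at optimal rank 1192 (score 327) and at ranks 1654, 1322 and 1195 in replicates 1, 2 and 3, with scores of 83.8, 111 and 119. Its summits in the 3 replicates lay 14, 13 and 12 bp from the TSS, with an SD of 1.00 bp. RpLP1 was at optimal rank 2082 (score 227, 9 bp from the TSS) and at ranks 5164, 1416 and 2091 (scores 39.9, 106 and 84.5). RpLP2 was not in the pooled list. It was listed at rank 9535 in replicate 1 (score 24.7, 35 bp from the TSS) and 6501 in replicate 3 (score 37.7, 83 bp), with no entry in replicate 2. The genes of the stalk therefore differed, with RpLP0 bound in every list and RpLP2 bound in 1 replicate.

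Of the small subunit, RpS27, RpS10b, RpS4 and RpS23 had the highest peaks. RpS27, which encodes a zinc-binding protein, was at optimal rank 614 (score 468), the highest of all ribosomal protein genes, with its summit 43 bp upstream. It was at ranks 1226, 369 and 714 in replicates 1, 2 and 3 (scores 99.6, 209 and 156). Replicate 1 placed its summit 14 bp inside the gene, and replicates 2 and 3 placed it 39 and 43 bp upstream. RpS10b, which encodes a protein near the mRNA entry site, was at optimal rank 1121 (score 339) and at ranks 1437, 1272 and 1172 in the replicates (scores 91.4, 113 and 120), with summits 9, 2 and 3 bp from the TSS.

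RpS4 was at optimal rank 1834 (score 244, 14 bp from the TSS) and at ranks 1740, 2021 and 1807 in replicates 1, 2 and 3 (scores 81.4, 84.2 and 92.3). RpS23, whose product is part of the decoding centre, was at optimal rank 2233 (score 217, 1 bp from the TSS) and at ranks 2314, 2680 and 2138 (scores 67.8, 69.8 and 83.3). Both kept nearly the same place in every list.

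The other bound small subunit genes included, by optimal rank, RpS3A, RpS5a, RpS19a, RpS6, RpS7, RpS21, RpS14b, RpS12, RpS15, RpS14a, sta and RpS9. RpS6, the substrate of the growth-regulated S6 kinase, was at optimal rank 2865 (score 183), and its summit was the only one in the optimal list over 100 bp inside a ribosomal protein gene, at 122 bp. The start of the snoRNA gene snoRNA:Or-aca2, which lies within RpS6, was 6 bp from this summit. sta was at optimal rank 5100 (score 117, 17 bp from the TSS), at ranks 6941 and 4923 in replicates 1 and 2 (scores 32.0 and 44.4), and had no entry in replicate 3, where the nearest summit was 1015 bp away.

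The summits of bound ribosomal protein genes lay close to the TSS. Their median distance from the nearest TSS was 22.0 bp in the optimal list (n = 39), against 148 bp for the other bound protein-coding genes (n = 1926). In replicates 1, 2 and 3 the medians were 26.0, 25 and 25.5 bp, against 141, 154 and 152 bp for the other genes. Over the replicates this gives 25.5 ± 0.50 bp against 149 ± 7.00 bp (mean ± SD, n = 3), with no overlap. In the optimal list 29 of 39 summits (74.4%) were within 50 bp of the TSS, against 15.6% for the other bound genes, and 34 of 39 (87.2%) within 100 bp, against 32.2%.

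The number of annotated starts can bring a start nearer by count alone, so the distance was also taken from the 5' end of the gene only, where it was 41.0 bp (n = 39) against 157 bp (n = 1553). Among genes with a single annotated TSS it was 30 bp (n = 17) against 157 bp (n = 845). The replicate means were 44.2 ± 5.35 bp against 158 ± 5.0 bp by the first rule and 46.3 ± 4.54 bp against 156 ± 7.21 bp by the second (SD, n = 3). The gap was thus larger than the spread between replicates whichever start was used.

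Other bound genes had their summits mostly upstream, with a median signed distance of -122 bp (negative is upstream), whereas the ribosomal protein genes had a median of -5.0 bp. In the optimal list 16 of 39 summits (41.0%) were downstream of the TSS, against 21.8% for the other bound genes. This share was not stable. It was 60.0%, 36.2% and 35.4% in replicates 1, 2 and 3 (mean 43.9% ± 14.0, SD, n = 3), against 21.7% ± 2.11 for the other genes, and replicate 1 also had a positive median of 8.00 bp where replicates 2 and 3 had -11.0 and -8.50 bp.

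**Figure D2:**
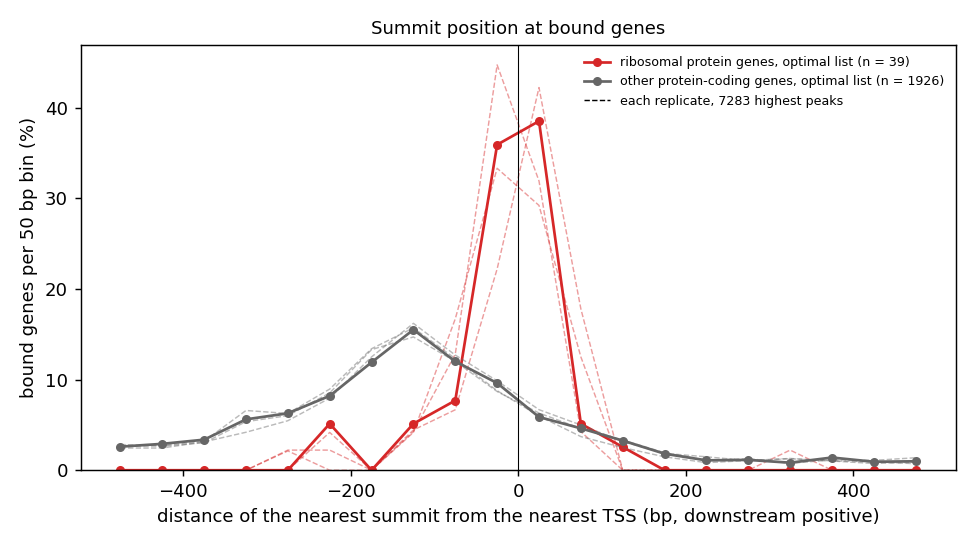
Share of bound genes (y axis, percent per 50 bp bin) by the distance of the nearest summit from the nearest TSS (x axis, bp, downstream positive) for ribosomal protein genes (red) and other protein-coding genes (grey), with the optimal list as solid lines and each replicate as a dashed line. The red lines peak in the bins beside the TSS, with 35.9% just upstream and 38.5% just downstream in the optimal list, and the grey lines peak about 100 to 150 bp upstream.

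At the 31 genes bound in all replicates, the summit moved by a median SD of 21.2 bp between replicates, against 30.7 bp at 1428 other protein-coding genes. The smallest SD was at RpLP0 (1.00 bp). The summit farthest out in the optimal list was that of RpL23, at 244 bp. RpL23 has another, higher summit 453 bp upstream, 103 bp from the start of the divergent gene CG13531. No ribosomal protein gene had its nearest optimal summit between 400 and 600 bp away. Those just outside the window were RpS28b at -812 bp, RpL34b at 873 bp and RpS19b at -901 bp.

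Some of these promoters were shared with a neighbour, and the share among other bound protein-coding genes was not computed. At 16 of the 39 bound genes (41.0%) a TSS of another protein-coding gene lay within 500 bp of the summit, always on the opposite strand. In 3 of them, which include RpL23 with CG13531 and RpL34a with Trmt61, the summit was nearer to the other gene, and for these the assignment to the ribosomal protein gene is uncertain. The bound share was similar with and without such a neighbour: 15 of 35 ribosomal protein genes with another coding TSS within 500 bp of their own were bound (42.9%), and 24 of 51 without (47.1%).

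Among the 86 genes are 8 pairs of paralogues whose symbols differ in a final a or b. For several of these pairs the less used copy is known from the germ line. Only RpS14 had both copies bound. RpS14a and RpS14b lie in tandem on X and are nearly identical, and the treatment of reads that match both copies is not known, so the signal of each copy is uncertain. RpS14a was at optimal rank 4970 (score 120, 30 bp from the TSS) and at ranks 8869, 3654 and 6986 in replicates 1, 2 and 3. RpS14b was at optimal rank 4192 (score 137, 9 bp) and at ranks 5020, 3782 and 5694.

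In 4 pairs 1 copy was bound in the optimal list: RpL34a, RpS5a, RpS10b and RpS19a. RpS19a was at optimal rank 2602 (score 196, 5 bp from the TSS) and at ranks 2007, 4124 and 2606 in the replicates, and RpS19b, a copy used in the germ line, was in none of the lists. RpS5a was at optimal rank 2487 (score 201, 61 bp) and at ranks 3037, 2211 and 3040, and RpS5b, used in the ovary, was likewise in none. RpS10a was listed everywhere but low, at pooled rank 12946 and at ranks 18583, 13645 and 15258, far below RpS10b.

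RpL34a was at optimal rank 1706 (score 257, 133 bp from the TSS, nearer to Trmt61) and at ranks 1964, 1620 and 1916. RpL34b was listed only in replicate 2, at rank 1441 (score 104, 121 bp from the TSS). In the remaining 3 pairs neither copy was bound in the optimal list, yet 1 copy of each was bound in replicates 1 and 2. RpL10Ab was at ranks 3166 and 4375 in those replicates, RpS15Aa at 3096 and 4484, and RpS28b at 1768 and 1762. Their partners RpL10Aa, RpS15Ab and RpS28a had no entry in any list. In all, 6 of 16 paired copies were bound in the optimal list, and 33 of 70 genes without such a copy. No pair had both copies bound in all replicates.

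Away from the optimal list, 22 ribosomal protein genes were bound in at least 1 replicate (25.6%), against 8.47% of all protein-coding genes. Of these 22, 3 of the 5 with the best pooled rank missed the optimal list narrowly. RpL40, which encodes a fusion of ubiquitin with a ribosomal protein, was at pooled rank 7319 (score 87.2), RpL15 at 7345 (score 87.0) and RpL38 at 7632 (score 84.2), all just beyond 7283. RpS15Aa was at pooled rank 8123 (score 79.5) and RpS13 at 9182 (score 71.0). The summits of these 5 in the pooled list lay 94, 94, 40, 18 and 92 bp from the TSS. In replicates 1, 2 and 3, RpL15 was at ranks 12990, 6170 and 7761 and RpL38 at 5377, 11214 and 8885. RpL40 was at 5948 and 6126 in replicates 1 and 3, and RpS13 at 9504 and 6447 in replicates 2 and 3. Only 6 ribosomal protein genes, these and RpS10a, had a pooled entry beyond the optimal list.

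Most others of the 22 were bound in some lists and had no entry within 500 bp of a TSS in the rest. RpL13 was at rank 910 in replicate 1 (score 117, 7 bp from the TSS) and 1244 in replicate 3 (score 116, 19 bp), but in replicate 2 the nearest entry was 2969 bp away and in the pooled list 1448 bp away. RpL14 was at rank 1259 in replicate 2 (score 114, 2 bp), and its nearest entries in the pooled list and in replicates 1 and 3 were 6658, 6656 and 6627 bp away. RpL31 was at rank 1205 in replicate 3 (score 118, 19 bp) and in no other list. RpL13A was at ranks 1320 and 1815 in replicates 2 and 3 (scores 111 and 91.9), with the nearest entry 1318 bp away in the pooled list and in replicate 1. These promoters changed between a high peak and no entry within 500 bp from list to list, without the low ranks in between.

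RpL18 was at ranks 4356 and 1589 in replicates 2 and 3, RpS20 at 2296 and 1953 in replicates 1 and 3, and RpS16 at 2228 and 2212 in replicates 2 and 3, all with no pooled entry. RpL9 (rank 1697 in replicate 1), RpL23A (2688 in replicate 2), RpS25 (3182 in replicate 3), RpL35 (6297 in replicate 1), RpL36 (6261 in replicate 2) and RpS29 (3886 in replicate 2) were bound in 1 replicate each. RpS29 was also listed low in the others, at rank 24469 in replicate 1 and 17966 in replicate 3. The remaining genes of this kind, RpL34b, RpL10Ab, RpS28b and RpLP2, are given above. At both RpL10Ab and RpS28b the nearest entry was 604 bp away in the pooled list and 594 bp away in replicate 3. At RpL34b it was 682 bp away in replicate 3. Some of these genes thus had an entry not far outside the window. RpL28, RpS3 and RpS30 were listed in a replicate without being bound, at best ranks of 18460, 7341 and 28836.

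Counted over all genes, 26 ribosomal protein genes stood at rank 2000 or higher in some replicate, and 9 of these (34.6%) had no pooled entry within 500 bp of a TSS. Of other protein-coding genes 212 of 1154 (18.4%) were in that position. The limit of 2000 was chosen after such entries had been seen, and the gap rests on it. Of the genes among the 7283 highest peaks of replicates 1, 2 and 3, 13.3%, 21.3% and 16.7% of ribosomal protein genes had no pooled entry, close to the 16.1%, 19.3% and 12.9% of other genes and with replicate 1 in the opposite order. In each replicate list, 84.9%, 88.7% and 87.3% of the listed ribosomal protein genes were among the 7283 highest peaks, against 51.1%, 49.0% and 48.7% of the listed other genes. This difference goes with the higher bound share. Of the genes without such a peak, 80.5%, 84.6% and 81.6% of ribosomal protein genes had no entry, and 80.3%, 80.8% and 81.2% of other genes.

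**Figure D3:**
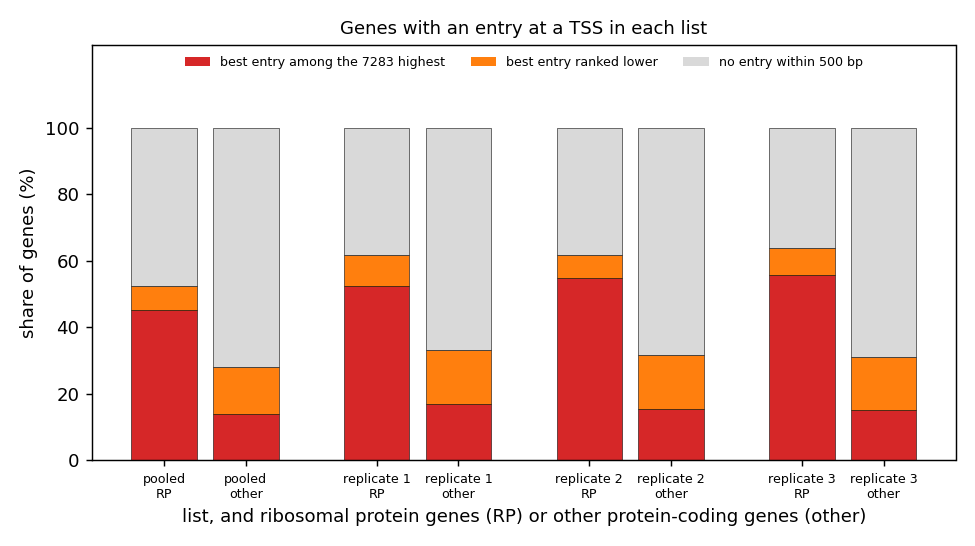
Share of genes (y axis, percent) with the best entry among the 7283 highest (red), with an entry ranked lower (orange) or with no entry within 500 bp of a TSS (grey), for ribosomal protein genes (RP, n = 86) and other protein-coding genes (n = 13882) in the pooled list and in each replicate list. The orange share is 6.98% to 9.30% of ribosomal protein genes and 14.2% to 16.3% of other genes.

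Agreement in rank was looser among the ribosomal protein genes. Over the 31 bound in all replicates, Spearman's rho between the ranks of 2 replicates was 0.648, 0.725 and 0.632, against 0.834, 0.879 and 0.85 over 1428 other genes. These values are given as a description. The replicates share a control, and the ribosomal protein genes span a narrower range of ranks.

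The whole pooled list held 45 of the 86 genes (52.3%), against 28.3% of all protein-coding genes, and any of the 5 lists held 65 (75.6%), against 43.3%. The 21 genes in no list were 10 of the large subunit (RpL3, RpL6, RpL10Aa, RpL11, RpL21, RpL26, RpL27A, RpL29, RpL35A and RpL36A) and 11 of the small subunit (among them RpS2, RpS5b, RpS15Ab, RpS18, RpS19b, RpS24, RpS26, RpS27A and RpS28a). They include RpL3, which encodes the protein that reaches into the peptidyl transferase centre, and RpS27A, the other ubiquitin fusion gene. At these genes the nearest pooled summit lay a median of 9271 bp away, from 655 bp at RpL21 to 35438 bp at RpL29. In replicates 1, 2 and 3 the median distances were 6501, 6055 and 6462 bp. RpL10Aa, RpS5b, RpS15Ab, RpS19b and RpS28a are copies from paralogue pairs, and the others are not.

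Motif content of the promoters was compared with that of all 13968 protein-coding genes in a window from 250 bases before to 50 bases after the gene start, on both strands. The TCT start, CTTT with its C within 5 bases of a start, was searched at any annotated TSS, a choice made after the data were seen, and at the gene start alone. At any TSS it was found in 56 of 86 ribosomal protein genes (65.1%), against 8.06% of all protein-coding genes, and at the gene start alone in 34.9% against 5.63%. At any TSS it was in 69.2% of bound and 61.7% of unbound ribosomal protein genes, and at the gene start in 35.9% and 34.0%. The DRE, TATCGATA, was in 28.2% of bound and 29.8% of unbound ribosomal protein genes, against 9.36% of all protein-coding genes. The GAGA sequence, GAGAG, was in 17.4% of ribosomal protein genes against 29.7% of all. It was in 9 of 39 bound (23.1%) and 6 of 47 unbound ribosomal protein genes (12.8%), and in 41.8% of bound and 27.7% of unbound genes among all protein-coding ones. The TATA box, TATAAA, was in 51.2% of ribosomal protein genes against 45.8% of all, with 51.3% of bound and 51.1% of unbound ones, and the Myc E-box, CACGTG, was in 6.98% against 4.2%. The DRE core lies within the DRE, so these counts overlap.

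The Motif 1 core, GGTCACAC, was found in more of the bound than of the unbound ribosomal protein genes, a difference given here as a count and not tested. It was in 11 of 39 bound genes (28.2%) and 3 of 47 unbound ones (6.38%), against 7.69% of all protein-coding genes. The 11 included RpL7, RpL19, RpL27, RpL30, RpL37A, RpLP1, RpS9, RpS15, RpS23 and sta. The 3 unbound genes with the core, RpL6 and RpL27A among them, were in none of the lists. Among all protein-coding genes the difference was small, 8.60% of bound and 7.54% of unbound genes.

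The core also lay close to some of the summits. It was within 50 bp of the best-ranked optimal summit at 7 of 39 bound ribosomal protein genes (17.9%), among them RpL30, RpL37A, RpLP0, RpLP1, RpS9 and RpS15. At RpLP1 and RpS9, printed above, its middle was 5 and 13 bp from the summit. It was farther out at RpL7, RpS23, RpL27, sta and RpL19, at 51, 53, 123, 145 and 196 bp. RpLP0 had the core near the summit but not in the window at the gene start. Of the other bound protein-coding genes 0.727% had it, and 1.24% of those with a summit within 50 bp of a TSS (3 of 242). In the replicates the share was 11.4% ± 2.17 for ribosomal protein genes (SD, n = 3), 1.04% ± 0.390 for other bound genes and 3.55% ± 1.99 for those with the summit within 50 bp of a TSS. The 3 replicate values were 8.89%, 12.8% and 12.5% for ribosomal protein genes, from 4, 6 and 6 genes, and at most 4.78% for the others.

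At the same summits GAGAG was within 50 bp at 1 of 39 ribosomal protein genes (2.56%), RpS5a, against 17.6% of the other bound genes. The replicate means were 2.89% ± 1.35 and 16.0% ± 2.49 (SD, n = 3). The DRE core was near the summit at 17.9% of bound ribosomal protein genes against 4.78% of the others. In the replicates it was at 13.3%, 27.7% and 20.8% of ribosomal protein genes, and other genes with a summit within 50 bp of a TSS were at 9.06%, 13.1% and 4.38%. A match is only a description of the letters, and binding of Dref, M1BP or the GAGA factor was not measured.

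**Figure D4:**
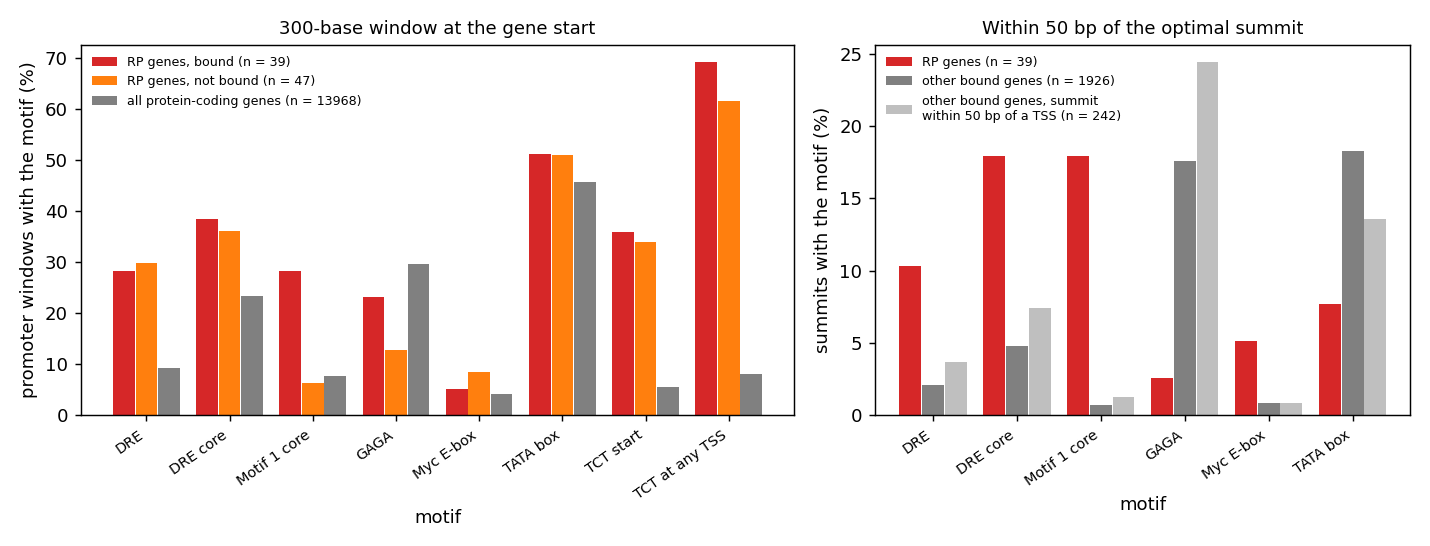
Left, share of 300-base promoter windows with each motif (y axis, percent) in bound (red) and unbound (orange) ribosomal protein genes and in all protein-coding genes (grey). Right, share of best-ranked optimal summits with the motif within 50 bp in ribosomal protein genes (red), other bound genes (grey) and other bound genes with the summit within 50 bp of a TSS (light grey). The Motif 1 core is at 28.2%, 6.38% and 7.69% on the left and at 17.9%, 0.727% and 1.24% on the right.

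By chromosome arm, 10 of 14 ribosomal protein genes on X were bound (71.4%), 7 of 14 on 3L (50%), 8 of 18 on 2R (44.4%), 7 of 17 on 2L (41.2%) and 6 of 22 on 3R (27.3%). On these arms all protein-coding genes ranged from 13.1% on 3R to 16.5% on X. The only ribosomal protein gene on chromosome 4, RpS3A, was bound, at optimal rank 2457 with its summit 1 bp from the TSS, and 16 of 80 protein-coding genes of that chromosome were (20%). All 14 genes on X were in at least 1 list, and 14 of 22 on 3R were. Of the paralogue copies bound in no replicate, RpL10Aa, RpS5b, RpS10a, RpS19b and RpS28a lie on 3R and none on X, and shares without them were not computed. The numbers on each arm are small and were not tested.

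Genes with more annotated starts have more chances to be called. Among all protein-coding genes 8.39% with a single TSS and 29.8% with more were bound, whereas 17 of 42 ribosomal protein genes with a single TSS (40.5%) were bound, and 22 of 44 with more (50%). Bound ribosomal protein genes were short, with a median length of 1445 bp against 5326 bp for all bound protein-coding genes, and unbound ones had a median of 1186 bp. Many ribosomal protein genes carry small nucleolar RNA genes in their introns. Of 29 such hosts 14 were bound (48.3%), and of 57 other ribosomal protein genes 25 (43.9%), which are close shares.

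Lists of genes around the ribosome were counted in the same way. Of 8 genes for ribosomal proteins or their relatives outside the symbol rule, 2 were bound. These were Rack1, a signalling scaffold that sits on the small subunit (optimal rank 2253, score 216, 12 bp from the TSS, all 3 replicates), and RpL37-1 (rank 5240, 1 replicate). RpL22-like, RpL24-like, RpL7-like, RpLP0-like, RpS28-like and RpL37-2 were not. Of 39 genes for ribosome production, such as nucleolar assembly factors and RNA polymerase I subunits, 4 were bound (10.3%), against 14.1% of all protein-coding genes. They were eIF6 (rank 268), Ns2 (296), Non2 (3344) and Polr1D (6986). Of 12 genes for factors linked to these promoters 5 were bound: Mnt (rank 1379), Trl (1466), Trf2 (2032), BEAF-32 (2257) and Max (6194). Dref, bound in 2 replicates, and M1BP, bound in none, were not in the optimal list.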

How the data were processed

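ChIP-seq peak lists of 3 replicates were used, 5 lists on dm6, and 5 lists on dm3 were not used. Each replicate and pooled list was described by the submitters, in the file descriptions, as input for the irreproducible discovery rate (IDR) procedure, background included, and the optimal list as its output. Which aligner, peak caller and IDR threshold were used was not given in the sources used here. Peaks were ranked by score, the signal value the authors deposited, and its scale depends on the list. The deposited −log10 q-value has the same highest value in 3657 pooled peaks and was not used for ranking. Depth is unknown, since the lists hold no counts.

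Genes and transcript starts came from Ensembl release 115 (Release 6 assembly), with summits at the deposited offset from the peak start and positions 1-based. Python 3.11.15, pandas 2.3.3 and numpy 2.4.6 were used. The assignment of summits to genes was tested on simulated peaks. Distances use the summit nearest to a TSS, and ranks and motifs at summits use the best-ranked summit of a gene. A RefSeq promoter table had been planned for motifs, and windows at Ensembl gene starts were read from the Release 6 genome instead. Of 40 symbols for ribosome production 1 had no match, and RpS28b, a member, was left out of the list of relatives.

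Members and lists were chosen with earlier results of these data known. A few members are not reported here by name, though they are counted. Every other member is named by status, and full values are given for the highest 4 of each subunit, the stalk genes and sta, the paralogue pairs and the 5 unbound genes with the best pooled rank. RpL5, RpL6, RpL11, RpL13, RpL13A, RpL14, RpL27A, RpL31, RpS6 and the genes with the Motif 1 core were singled out after their values were seen. With 1 group there was no comparison between conditions and no test was made. The biological replicates are separate samples per the labels, and SDs measure the spread between them. Alternatives changed the window, the TSS used, the assignment, the number of peaks, the list and the replicates.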

Additional observations from a re-analysis of the deposited data

How the results depend on the processing

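Of 82 alternative values, 53 were labelled close to the value in the text and 29 moved, by limits that differed between kinds of value. Counts were labelled by their ratio to the main count, so 26 bound genes passed as close to 39, and 25 as moved. Motif shares passed as close inside a binomial interval, so the Motif 1 core at 17.9% passed as close to 28.2%. The remaining values were close when they differed by less than the SD between replicates. The 39 bound genes became 36 to 45 under other windows, starts, assignments or the whole pooled list, 31 to 34 without a replicate by summits within 100 bp and 23 to 26 by 50% overlap (large subunit 19 to 21 and 14 to 15, small subunit 12 to 14 and 9 to 11). In the 3641 highest optimal peaks 29 were bound, 19 of the large and 10 of the small subunit. The mean replicate share of 54.3% was 36.4% with 3641 peaks per replicate, 62.4% with whole lists, 51.9% and 57.4% with windows of 200 and 1000 bp, and 53.5% to 55.2% without a replicate. Genes bound in all replicates fell to 16 with 3641 peaks. The median summit distance was 21.0 and 24.0 bp with those windows, 41.0 bp from gene starts, 26.0, 25 and 25.5 bp in replicates 1 to 3, and 22.0 bp without each replicate in turn. The downstream share was 56.4% from gene starts, 60.0% in replicate 1 and 35.3% to 41.2% without a replicate. The median rank was 2680 and 2657 in replicates 2 and 3 and 2128 to 2279 without a replicate. For the optimal list, leaving out a replicate meant keeping the optimal peaks also found in both other replicates. The summits, ranks and listing of these peaks still came from the pool of all 3 replicates. Their counts, distances, downstream shares and ranks are therefore not free of the replicate left out. Within 50 bp of the summit the DRE share of bound genes was 10.3%, the DRE core 17.9%, GAGAG 2.56% and the TATA box 7.69%. At any TSS the TCT start share was 69.2%, an alternative chosen after the data were seen, as were the whole pooled list, the rank limit of 2000 and the comparison with summits within 50 bp of a TSS. The causes were not tested. No paired analysis was possible because there is only 1 group. Unknown depth limits any statement on genes without an entry.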
